A study of Bos taurus with 10 samples.

Results

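The change in poly(A) RNA between the 8/16-cell stage and the morula was measured in control bovine embryos. These embryos had received a negative control small interfering RNA (NC) as zygotes and differ from knockdown embryos (KD), whose zygotes received small interfering RNA that targets H1FOO, a linker histone specific to oocytes and early embryos. NC 8/16-cell embryos were taken 4 days after insemination (2 libraries) and NC morulae 5.5 days after it (3 libraries). The KD embryos, taken at the same stages and ages with 2 and 3 libraries, are used here for comparison, and their libraries also enter the estimate of spread behind the tests. Both treatments share the injection, so none of the groups used here was uninjected, and the labels give neither the number of embryos behind a library nor their sex or breed. Genes were taken where the symbol stands on 1 line of the table and the mean over the 5 NC libraries is at least 1 FPKM (mapped fragments scaled by transcript length and by the fragments of the library, hence a share of a library). This left 11677 genes of 28700.

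As background, a bovine embryo runs on RNA stored in the oocyte until its own genome becomes broadly active around the 8-cell to 16-cell stage. Stored transcripts are then degraded while embryonic transcripts take over. In the morula the blastomeres flatten against each other, gain an outer (apical) and an inner surface, and begin to part into trophectoderm on the outside and inner cell mass on the inside, and the tight junctions and ion pumps that later fill the blastocoel are put in place.

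The stages stood apart in the NC libraries. The first principal component held 64.2% of the variance, with the 8/16-cell libraries at -58.6 and -56.1 and the morula libraries at 54.6, 25.8 and 34.3. Pearson correlations across genes were 0.97 between the 8/16-cell libraries, 0.936 to 0.941 between the morula libraries and 0.835 to 0.883 between stages. The median standard deviation of a gene on the log2 scale was 0.156 at the 8/16-cell stage (n = 2) and 0.288 in morulae (n = 3). The NC libraries summed to between 345464 and 456442 FPKM, with 11103 to 11718 genes at 1 FPKM or more. RN18S1, the 18S ribosomal RNA that poly(A) selection should remove, was listed at 3383 and 9367 FPKM in the 8/16-cell libraries and at 2704, 2983 and 8611 FPKM in the morulae, so the stages overlapped in it. For 71 of the 81 symbols left out because they stand on several lines, the NC morula columns hold several values and the 8/16-cell columns 1 value, and a difference in how the columns of the stages were made cannot be told apart from the stage. In bulk RNA, fewer cells of a type and less RNA per cell cannot be told apart either.

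Between the stages 3695 of 11677 genes changed (31.6%, limma, adjusted p under 0.05), of which 1528 rose (13.1%) and 2167 fell (18.6%). At least 2-fold changes made up 897 of the rises and 1197 of the falls. The libraries of the stages did not overlap for 6679 genes (57.2%), among them 3692 of the 3695. The median log2 difference of all genes tested, morula minus 8/16-cell, was -0.06. Of the genes that rose, 205 had a mean under 1 FPKM at the 8/16-cell stage and entered through the morulae, and 324 of those that fell had a mean under 1 FPKM in the morulae. A fit to the 5 NC libraries alone called 1226 higher and 1770 lower and kept 2894 of the 3695. The counts were 682 and 802 without NC 8/16-cell replicate 1, without NC 8/16-cell replicate 2 they were 604 and 1176, and without NC morula replicate 1 they were 974 and 1625. A lone 8/16-cell library is assumed in such a fit to vary like the other groups. All 3695 genes kept their sign in every one of these fits and 1110 were called in each of the 5 that left out 1 NC library. Calls of single genes named below held under each of the 14 alternatives that tested the gene unless the loss is given, and 40 of the called named genes, with means under 5 FPKM, were not tested at a mean of at least 5. The medians given below for 14 of the 45 gene lists changed sign under at least 1 alternative, so that medians near 0 show no direction. Counts of calls in a list stand beside 13.1% higher and 18.6% lower over all genes tested. Some genes stand in more than 1 list, so the lists are not independent of each other.

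**Figure D1:**
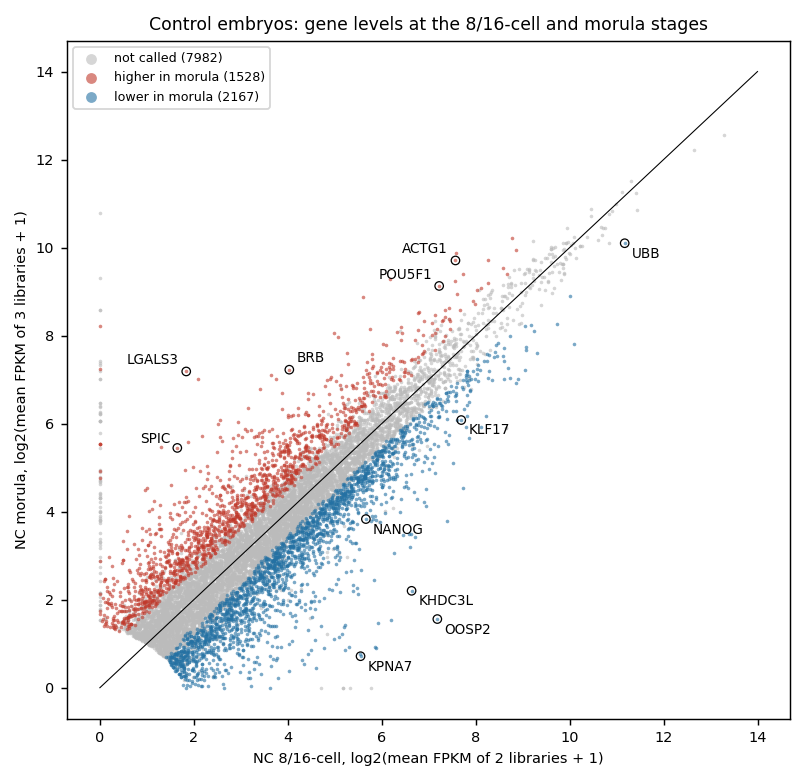
Level of each of 11677 genes in NC embryos: the horizontal axis gives log2 of the mean FPKM of the 2 8/16-cell libraries plus 1, the vertical axis the same for the 3 morula libraries, and the line marks equal levels. The 1528 genes called higher in morulae are red, the 2167 called lower are blue, and circles mark genes described in the text. The column of points at the left edge holds genes listed at 0 in both 8/16-cell libraries (80 genes, 76 of them with a LOC symbol).

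The largest log2 falls and rises are given with symbols that start with LOC, MIR, SNOR or RN left out, since some LOC symbols changed by more. Only called genes whose libraries did not overlap between the stages were ranked. Several of the falls were of genes known from the oocyte. OOSP2, a protein the oocyte secretes, stood at 185 and 104 FPKM in the 8/16-cell libraries and at 0.383, 4.76 and 0.707 FPKM in the morulae (log2 difference -5.87, SE 0.57, adjusted p 0.00019). BMP15, the oocyte growth factor that acts on the surrounding follicle cells, went from 75.7 and 39.2 FPKM to 0.165, 1.42 and 1.03 FPKM (-4.96, SE 0.40, adjusted p 0.000101). MOS, the kinase that holds the mature egg in meiotic arrest, went from 70.6 and 43.9 to 1.19, 0.956 and 0.53 FPKM (-4.92, SE 0.44, adjusted p 0.000115). In all 3 genes every morula library lay far below both 8/16-cell libraries. KPNA7, the importin of oocytes and early embryos, fell from 50.7 and 40.9 to 0.61, 0.599 and 0.719 FPKM (-4.83, SE 0.27, adjusted p 1.35e-05). BTG4, an adaptor that brings the CCR4-NOT deadenylase to maternal RNA, fell from 58.4 and 32.9 to 0.725, 0.667 and 0.741 FPKM (-4.71, SE 0.30, adjusted p 2.16e-05). The morula libraries were close to each other in these 2 genes. EIF4E1B (-4.68), the cap-binding protein of the oocyte, KHDC3L (-4.44), a member of the subcortical maternal complex, the secreted glycoprotein STC2 (-4.47), the BMP target ID3 (-4.4), the cold-shock domain protein YBX3 (-4.39), the BCL2 relative BCL2L10 (-3.91) and the chemokine GRO1 (-3.88) complete the 12 largest log2 falls among the remaining genes that averaged 10 FPKM or more at 1 stage.

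The largest rises, by the same rule, began with a lectin and a matrix protein. LGALS3, a galectin that binds sugars on glycoproteins, stood at 3.3 and 1.85 FPKM at the 8/16-cell stage and at 231, 93.1 and 109 FPKM in the morulae (log2 difference 5.26, SE 0.45, adjusted p 0.000115). FN1, the matrix protein fibronectin, rose from 3.64 and 2.84 to 222, 89.9 and 74 FPKM (4.77, SE 0.57, adjusted p 0.000444), and FBLN2, the matrix protein fibulin 2, from 1.25 and 1.7 to 69.5, 24.2 and 37 FPKM (4.05, SE 0.47, adjusted p 0.000395). In these genes NC morula replicate 1 was the highest and no morula library came near the 8/16-cell level. SPIC, an ETS family transcription factor, went from 2.14 and 2.13 to 34.8, 62.2 and 31 FPKM (3.73, SE 0.40, adjusted p 0.000294), with the highest value in replicate 2. OTX2, a homeobox factor, went from 5.44 and 1.61 to 71.9, 42.8 and 39.6 FPKM (3.63, SE 0.65, adjusted p 0.00278). The other 7 of the 12 largest log2 rises were the scaffold of protein kinase A AKAP12 (3.59), the peroxisomal protease LONP2 (3.49), the dipeptidase PEPD (3.42), the membrane glycoprotein PDPN (3.4), the ribonuclease BRB (3.35), the calcium-binding S100A5 (3.34) and the membrane-binding annexin ANXA6 (3.28). The PDPN call was lost without NC 8/16-cell replicate 2 (adjusted p 0.0588), and that of S100A5 was lost without NC 8/16-cell replicate 1 (adjusted p 0.0549). Of the 1528 genes that rose, 973 had their highest morula value in replicate 1, 285 in replicate 2 and 270 in replicate 3.

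**Figure D2:**
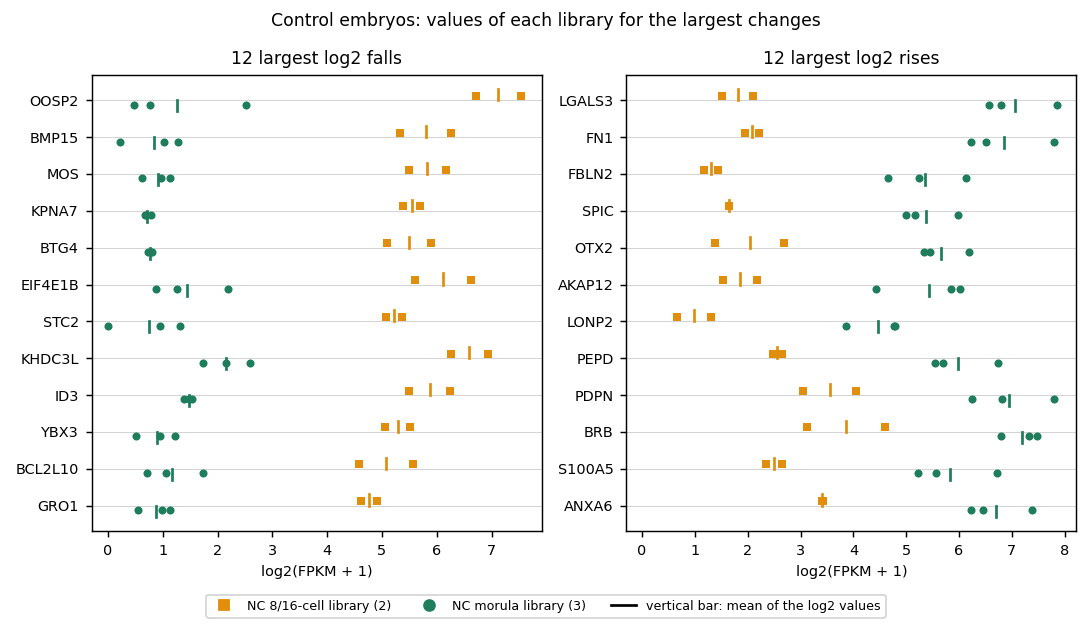
Values of each NC library, as log2(FPKM + 1), for the 12 genes with the largest log2 falls (left) and rises (right). Orange squares are the 2 8/16-cell libraries, green circles the 3 morula libraries and vertical bars their means. All 24 genes were chosen among called genes whose libraries do not overlap between the stages.

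Ranked by FPKM rather than by log2, the rises were of abundant RNAs. HSPB1, a small heat shock protein, rose from 74.7 and 67.1 to 860.0, 389.8 and 629.5 FPKM (log2 difference 3.05, SE 0.38, adjusted p 0.000532). POU5F1, the pluripotency factor OCT4, rose from 180.2 and 117 to 673, 449 and 555 FPKM (1.92, SE 0.33, adjusted p 0.00212), and ACTG1, cytoplasmic gamma actin, from 199 and 179 to 1241, 472 and 793 FPKM (2.03, SE 0.39, adjusted p 0.0036). HMGB1, an abundant DNA-bending protein, and ATP5F1A, the alpha subunit of the ATP synthase, rose by 1.64 and 1.32. The lysosomal protease CTSV reached 1165, 1068 and 1323 FPKM from 563 and 315 FPKM (1.48), the creatine kinase CKB 1238, 526 and 1040.0 from 211 and 168 FPKM (2.22) and the tight junction claudin CLDN6 742, 343 and 723 from 228 and 149.7 FPKM (1.62). These 3 calls were less stable. That of CTSV was lost without NC 8/16-cell replicate 2 (adjusted p 0.0882), that of CKB lost without NC 8/16-cell replicate 2 (adjusted p 0.0667) and that of CLDN6 lost without NC 8/16-cell replicate 2 (adjusted p 0.13) and without NC morula replicate 1 (adjusted p 0.0575).

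Among the abundant RNAs that fell, TMEM37, a relative of the accessory subunits of calcium channels, went from 1160.0 and 1038 FPKM to 125, 189 and 360.4 FPKM (log2 difference -2.42, SE 0.42, adjusted p 0.00246). CKS2, which binds cyclin-dependent kinases, fell from 894 and 799 to 311, 258 and 349 FPKM (-1.47, SE 0.21, adjusted p 0.00109), and SLC1A5, the glutamine carrier, from 506 and 449 to 90.4, 119 and 174 FPKM (-1.95, SE 0.29, adjusted p 0.00126). The spliceosome subunit SF3B5, the nuclear receptor coactivator PNRC1 and the ribosomal RNA methyltransferase BUD23 fell by 1.71, 2.03 and 1.41. Polyubiquitin UBB had the largest loss in FPKM, from 2399 and 2216 to 1115, 960.4 and 1211 FPKM (-1.08), and its call was lost without NC 8/16-cell replicate 1 (adjusted p 0.0754). The RNA-binding protein RBM4 fell by 1.14, a call lost without NC 8/16-cell replicate 1 (adjusted p 0.0669).

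Lists of maternal genes held more falls than rises. Of 20 oocyte secreted factors, zona proteins and meiosis genes, 15 fell and 1 rose, with a median log2 difference of -1.93. Besides OOSP2, BMP15 and MOS, the growth factor GDF9 fell from 16.2 and 8.89 to 0.512, 1.04 and 0.272 FPKM (log2 difference -3.05, SE 0.31, adjusted p 0.000237), the zona pellucida protein ZP3 from 18.1 and 16.3 to 3.3, 1.73 and 3.27 FPKM (-2.3, SE 0.27, adjusted p 0.000401) and the meiotic kinase AURKC from 56.3 and 51.1 to 11.3, 11.6 and 15.6 FPKM (-2.0, SE 0.24, adjusted p 0.000438). The member that rose was CD9, a tetraspanin of the egg surface that many other cells also make, at 1.39, and its call was lost without NC 8/16-cell replicate 1 (adjusted p 0.0697) and without NC 8/16-cell replicate 2 (adjusted p 0.082). The falls numbered 12 and 11 without NC 8/16-cell replicate 1 or 2.

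Of 39 genes of maternal RNA decay and translational control, 16 fell and 2 rose (median -0.50). The germ cell RNA-binding protein YBX2 fell from 134 and 110.1 to 21, 22.3 and 21.9 FPKM (log2 difference -2.43, SE 0.18, adjusted p 4.37e-05). CPEB1, which sets the poly(A) tails of stored RNAs, fell from 14.5 and 8.07 to 0.515, 0.58 and 0.858 FPKM (-2.85, SE 0.28, adjusted p 0.000181), and the zygote arrest proteins ZAR1 and ZAR1L fell by 2.83 and 3.46. The members that rose were both subunits of the general deadenylase PAN2-PAN3, PAN2 at 1.21 and PAN3 at 0.73. The PAN3 call was lost in the fit to the control libraries alone (adjusted p 0.0573), at equal library sums (adjusted p 0.129), without the filter (adjusted p 0.0721), without NC 8/16-cell replicate 1 (adjusted p 0.12), without NC 8/16-cell replicate 2 (adjusted p 0.214), without NC morula replicate 1 (adjusted p 0.129) and without NC morula replicate 2 (adjusted p 0.0939). Of 17 genes of the subcortical maternal complex and other maternal-effect genes, 10 fell and 2 rose (median -0.92). NLRP8 fell from 19.2 and 21.9 to 0.348, 1.06 and 0.655 FPKM (log2 difference -3.69, SE 0.34, adjusted p 0.000134), the arginine deiminase PADI6 from 11.4 and 6.99 to 0.55, 0.667 and 0.678 FPKM (-2.61, SE 0.31, adjusted p 0.000401), and NLRP9 and NLRP5 fell by 1.92 and 1.86. The 2 that rose act on chromatin: the de novo DNA methyltransferase DNMT3A went from 0.832 and 1.04 to 12.2, 6.37 and 4.63 FPKM (2.08) and the co-repressor TRIM28 rose by 0.80. The DNMT3A call was lost without NC 8/16-cell replicate 1 (adjusted p 0.0726) and without NC 8/16-cell replicate 2 (adjusted p 0.0529). That of TRIM28 was lost in the fit to the control libraries alone (adjusted p 0.0832), without the filter (adjusted p 0.0667), without NC 8/16-cell replicate 1 (adjusted p 0.11), without NC 8/16-cell replicate 2 (adjusted p 0.19), without NC morula replicate 1 (adjusted p 0.0801) and without NC morula replicate 3 (adjusted p 0.0854). Among the decay genes 11 fell without NC 8/16-cell replicate 1 and 13 without replicate 2, and among the maternal-effect genes 7 and 9.

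H1FOO itself, the target in the knockdown embryos, stood at 50.9 and 10.8 FPKM in the NC 8/16-cell libraries, which differed widely from each other, and at 0.294, 1.05 and 2.17 FPKM in the NC morulae (log2 difference -3.61, SE 0.54, adjusted p 0.00128). It led the linker histones, of which 5 of 8 fell and 0 rose (median -0.76, limma; 5 and 0 at an unadjusted p under 0.05). Somatic HIST1H1A went from 12.8 and 9.27 to 1.93, 4.9 and 3.25 FPKM (-1.51), a call lost without NC 8/16-cell replicate 1 (adjusted p 0.0552). H1FX and H1F0, linker histones of somatic cells, stood at 65.6 and 67.5 and 28.8 and 26 FPKM at the 8/16-cell stage and at 38.5, 34.8 and 48.4 and 20.2, 57.9 and 39.3 FPKM in morulae (-0.71 and 0.38). H1F0 did not pass and its stages overlapped. The H1FX call was lost with centred libraries (adjusted p 0.0917), at equal library sums (adjusted p 0.0608), without the filter (adjusted p 0.078), with a pseudocount of 5 (adjusted p 0.0517), without NC 8/16-cell replicate 1 (adjusted p 0.161), without NC 8/16-cell replicate 2 (adjusted p 0.179), without NC morula replicate 1 (adjusted p 0.11) and without NC morula replicate 2 (adjusted p 0.102). Linker histones that fell numbered 1 without NC 8/16-cell replicate 1, without NC 8/16-cell replicate 2 or NC morula replicate 1 they numbered 2, and without NC morula replicate 2, with centred libraries or at equal library sums they numbered 3.

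Genes tied to genome activation split in direction. Of 26, 11 fell and 5 rose (median -0.29). KLF17, a Krüppel-like factor, went from 216 and 196 to 49.8, 71.4 and 79 FPKM (log2 difference -1.64, SE 0.28, adjusted p 0.00211), and ARGFX, a homeobox factor of the cleavage stages, from 209 and 179 to 61.9, 74.5 and 63.1 FPKM (-1.53, SE 0.26, adjusted p 0.00226). MYC, a general activator of growth genes, fell from 42.8 and 36.7 to 2.82, 7.22 and 5.8 FPKM (-2.77, SE 0.35, adjusted p 0.000542), and the TBP relative TBPL1 from 72.9 and 73.8 to 16.2, 19.8 and 21.4 FPKM (-1.89, SE 0.24, adjusted p 0.00057). Both 8/16-cell libraries were above all morula libraries in these genes. DPPA2, a chromatin protein of pluripotent cells, rose from 27 and 24.2 to 67.1, 54.9 and 75.4 FPKM (1.32, SE 0.20, adjusted p 0.00133). The others that rose were OTX2, described above, and KLF5 (1.08), DPPA4 (0.86) and ZFP42 (1.02). MYC also stands in the immediate early list and OTX2 in the list of inner cell mass and epiblast genes. The KLF5 call was lost without NC 8/16-cell replicate 2 (adjusted p 0.206) and without NC morula replicate 1 (adjusted p 0.0686) and that of ZFP42 lost without NC 8/16-cell replicate 2 (adjusted p 0.166) and without NC morula replicate 1 (adjusted p 0.0523). That of DPPA4 was lost in the fit to the control libraries alone (adjusted p 0.0516), without the filter (adjusted p 0.0765), without NC 8/16-cell replicate 2 (adjusted p 0.388), without NC morula replicate 1 (adjusted p 0.0971), without NC morula replicate 2 (adjusted p 0.063) and without NC morula replicate 3 (adjusted p 0.0921). In this list 5 rose and 6 fell without NC 8/16-cell replicate 1, without NC 8/16-cell replicate 2, 2 and 5, and without NC morula replicate 1, 2 and 7.

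Inner cell mass and epiblast genes did not move as a block. Of 23, 8 rose and 6 fell (median 0.20, and -0.02 without NC 8/16-cell replicate 2). POU5F1 rose while NANOG, the homeobox factor of the epiblast, went from 63.2 and 36.1 to 6.48, 14.4 and 18.9 FPKM (log2 difference -1.89, SE 0.38, adjusted p 0.00461), a call lost without NC 8/16-cell replicate 1 (adjusted p 0.0666). SOX2, the partner of POU5F1, stood at 112 and 91 FPKM and 151, 123 and 102 FPKM and did not pass (0.29, SE 0.24, adjusted p 0.373). FGF4, the growth factor that epiblast cells send to primitive endoderm, was listed at 0 in both 8/16-cell libraries and at 5.79, 6.45 and 6.77 FPKM in the morulae (adjusted p 0.00145). SUSD2, a surface protein of naive pluripotent cells, rose from 0.294 and 0.679 to 13.2, 7.7 and 11.6 FPKM (2.97, SE 0.28, adjusted p 0.000157). KLF4 fell from 380.1 and 316 to 194, 162 and 201 FPKM (-0.90), a call lost without NC 8/16-cell replicate 1 (adjusted p 0.0571). Of the 23, 7 rose and 2 fell without NC 8/16-cell replicate 1, without NC 8/16-cell replicate 2 the counts were 4 and 6, and without NC morula replicate 1 they were 5 and 6.

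Of 17 trophectoderm genes 4 rose and 5 fell (median 0.33, and -0.14 without NC morula replicate 1). The lineage factors CDX2, GATA3 and TEAD4 did not pass. CDX2 stood at 8.29 and 2.39 FPKM and 11.7, 6.13 and 9.68 FPKM (0.82, SE 0.41, adjusted p 0.144), GATA3 at 2.96 and 2.48 and 7.99, 2.24 and 2.48 FPKM (0.33, SE 0.43, adjusted p 0.588) and TEAD4 at 17 and 15.7 and 24.6, 22 and 16.2 FPKM (0.32, SE 0.23, adjusted p 0.312). In each the stages overlapped. For CDX2 the result turned on the 8/16-cell libraries, with a difference of 1.54 without replicate 1 (adjusted p 0.0345) and of 0.09 without replicate 2, and for GATA3 only NC morula replicate 1 lay above the 8/16-cell libraries. The homeobox gene MSX2 rose from 3.88 and 3.81 to 40.0, 15.8 and 22.1 FPKM (2.37), a call lost without NC 8/16-cell replicate 1 (adjusted p 0.0565) and without NC 8/16-cell replicate 2 (adjusted p 0.0517). The epithelial factors ELF3 and OVOL1 fell, ELF3 from 4.03 and 3.57 to 0.697, 0.427 and 0.587 FPKM (-1.61, SE 0.25, adjusted p 0.00145) and OVOL1 from 7.4 and 7.66 to 2.49, 1.49 and 1.97 FPKM (-1.53, SE 0.25, adjusted p 0.00166). TFAP2C, a trophectoderm factor, stood at 129.5 and 122 and 93.2, 82.4 and 91.1 FPKM (-0.50). Its call was lost in the fit to the control libraries alone (adjusted p 0.103), at equal library sums (adjusted p 0.152), without NC 8/16-cell replicate 1 (adjusted p 0.153) and without NC 8/16-cell replicate 2 (adjusted p 0.0997). The keratins KRT8 and KRT18, filament proteins of trophectoderm, differed in spread: KRT8 ran from 3.95 to 36.8 FPKM over the morulae and did not pass (adjusted p 0.559), and KRT18 went from 13.4 and 13 to 61.5, 44.5 and 26.9 FPKM (1.6, SE 0.54, adjusted p 0.0447). The KRT18 call was lost at equal library sums (adjusted p 0.0516), without the filter (adjusted p 0.0948), without NC 8/16-cell replicate 1 (adjusted p 0.163), without NC 8/16-cell replicate 2 (adjusted p 0.17), without NC morula replicate 1 (adjusted p 0.142) and without NC morula replicate 2 (adjusted p 0.0937). IFNT2, the interferon that later trophectoderm secretes, was listed at 0.197 and 0.368 FPKM and at 0.403, 0.314 and 0.456 FPKM and was not tested. The trophectoderm counts were 2 higher and 2 lower without NC 8/16-cell replicate 1, without replicate 2, 0 and 2, and without NC morula replicate 1 or at equal library sums, 2 and 4.

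Of 23 genes of primitive endoderm and basement membrane 11 rose and 0 fell (median 0.82, limma; 12 and 2 at an unadjusted p under 0.05). COL4A1, a chain of basement membrane collagen, rose from 2.17 and 2.24 to 23.2, 13.4 and 15.9 FPKM (log2 difference 2.5, SE 0.25, adjusted p 0.000224), and LAMB1, a laminin chain, from 7.27 and 4.68 to 42.6, 38.2 and 28.8 FPKM (2.43, SE 0.29, adjusted p 0.000406). The endocytic adaptor DAB2 went from 3.62 and 3.91 to 24, 14.8 and 15.1 FPKM (1.96, SE 0.30, adjusted p 0.00145). The lowest morula library was several times the higher 8/16-cell library in these genes. GATA6, the transcription factor of early primitive endoderm, was already at 172 and 138 FPKM at the 8/16-cell stage and at 296, 192 and 207 FPKM in morulae, and did not pass (0.56, SE 0.26, adjusted p 0.117). SOX17 rose from 1.14 and 1.67 to 5.76, 2.79 and 5.07 FPKM (1.17), a call lost without NC 8/16-cell replicate 1 (adjusted p 0.123), without NC 8/16-cell replicate 2 (adjusted p 0.0544) and without NC morula replicate 1 (adjusted p 0.0555). The list's counts of rises were 6 and 5 without NC 8/16-cell replicate 1 or 2 and 7 without NC morula replicate 1, with 0 falls in each.

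**Figure D3:**
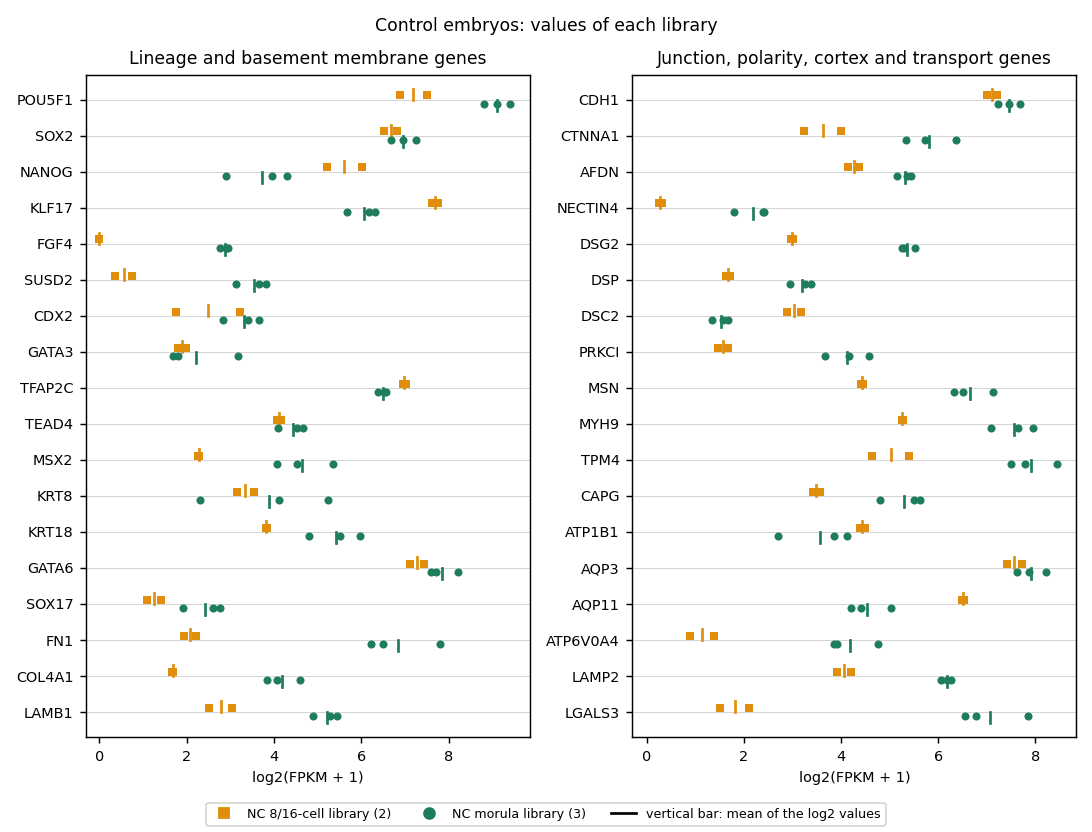
Values of each NC library, as log2(FPKM + 1), for lineage and basement membrane genes (left) and for junction, polarity, cortex and transport genes (right). Orange squares are the 2 8/16-cell libraries, green circles the 3 morula libraries and vertical bars their means. POU5F1 and NANOG lie on opposite sides, while SOX2, CDX2, GATA3, TEAD4, KRT8 and AQP3 overlap between stages.

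Junction genes rose more often than they fell. Of 28 tight and adherens junction genes, 10 rose and 2 fell (median 0.35). CTNNA1, the alpha catenin that links cadherin to actin, rose from 15.1 and 8.38 to 81, 51.9 and 39.6 FPKM (log2 difference 2.19, SE 0.34, adjusted p 0.00152). Afadin, AFDN, rose by 1.05. The nectins, which start cell contacts, went apart: NECTIN4 rose from 0.186 and 0.235 to 4.24, 2.44 and 4.31 FPKM (1.92, SE 0.33, adjusted p 0.00241) and NECTIN3 fell from 7.72 and 7.12 to 2.29, 2.33 and 2.54 FPKM (-1.31, SE 0.21, adjusted p 0.00156). CDH1, the cadherin of compaction, was already at 148 and 127 FPKM at the 8/16-cell stage and stood at 205, 174 and 149.9 FPKM in morulae without passing (0.35, SE 0.21, adjusted p 0.219). Of 15 desmosome and keratin genes 5 rose and 5 fell. Desmoglein DSG2 rose from 7.07 and 6.8 to 44.7, 38.5 and 37 FPKM (2.37, SE 0.25, adjusted p 0.000261) and desmoplakin DSP from 2.27 and 2.11 to 8.61, 9.38 and 6.7 FPKM (1.52, SE 0.26, adjusted p 0.00223), whereas desmocollin DSC2 fell from 6.35 and 8.0 to 1.96, 2.17 and 1.54 FPKM (-1.5, SE 0.29, adjusted p 0.00409). Rises of tight and adherens junction genes numbered 6 and 4 without NC 8/16-cell replicate 1 or 2, those of desmosome genes 2 and 3, and falls of desmosome genes 2 and 2. Without NC morula replicate 1, 3 desmosome genes rose.

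Polarity, cortex and actin lists also held more rises than falls. Of 40 polarity and Hippo genes 9 rose (22.5%) and 3 fell (7.5%), against 13.1% and 18.6% over all genes tested (median 0.22). PRKCI, the atypical protein kinase C of the apical domain, rose from 2.21 and 1.77 to 22.8, 16.8 and 11.7 FPKM (log2 difference 2.56, SE 0.39, adjusted p 0.00142), and WWC1, a scaffold of the Hippo pathway, from 5.66 and 5.73 to 41.5, 26.3 and 20.3 FPKM (2.12, SE 0.36, adjusted p 0.00207). MSN, which ties actin to the membrane, rose from 20.2 and 21 to 138, 90.6 and 78.9 FPKM (2.22, SE 0.32, adjusted p 0.00102). Of 53 actin and cell cortex genes 18 rose and 4 fell (median 0.49). Non-muscle myosin MYH9 rose from 37.1 and 37.5 to 246, 199 and 135 FPKM (2.3, SE 0.35, adjusted p 0.0013) and tropomyosin TPM4 from 41 and 24 to 346, 179.8 and 220.2 FPKM (2.89, SE 0.47, adjusted p 0.00185). The capping protein CAPG and caldesmon CALD1 rose by 1.82 and 1.66. Of 19 S100, annexin and galectin genes 9 rose and 2 fell (median 0.50), among them S100A14 from 16.6 and 10.7 to 146, 58.5 and 104 FPKM (2.77, SE 0.44, adjusted p 0.00164), ANXA2 by 1.74 and LGALS4 by 2.29. The rises of these 3 lists numbered 4, 8 and 7 without NC 8/16-cell replicate 1, without NC 8/16-cell replicate 2 they numbered 5, 9 and 5, and without NC morula replicate 1 they numbered 6, 10 and 7.

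Transport genes rose in part. Of 17 tested genes of the sodium pump, aquaporins and other ion transport, 7 rose and 3 fell. ATP6V0A4, a subunit of the proton pump of vesicles and plasma membrane, rose from 1.6 and 0.845 to 26.2, 13.4 and 14.1 FPKM (log2 difference 3.04, SE 0.39, adjusted p 0.000637). AQP11, an intracellular water channel, fell from 89.5 and 91.8 to 17.3, 31.6 and 20.2 FPKM (-1.98, SE 0.41, adjusted p 0.00536). The sodium pump subunit ATP1B1 and the water channel AQP3 did not pass, at 19.9 and 21.6 and 13.4, 16.5 and 5.53 FPKM (-0.88, SE 0.36, adjusted p 0.0822) and at 209.7 and 170.2 and 233, 197 and 299 FPKM (0.34, SE 0.21, adjusted p 0.245). Without NC morula replicate 2 ATP1B1 was called lower (-1.16, adjusted p 0.0335), and without NC morula replicate 3 its difference was -0.45. Of 33 nutrient carriers 13 rose and 3 fell (median 0.38). The creatine carrier SLC6A8 rose from 64.4 and 69.2 to 290.2, 217 and 152 FPKM (1.66, SE 0.26, adjusted p 0.00156), the fatty acid carrier SLC27A4 by 1.59, the zinc carrier SLC30A2 by 2.21 and the glutamate carrier SLC1A3 by 2.26. SLC38A1, which carries glutamine as SLC1A5 does, fell by 1.35. With NC 8/16-cell replicate 1 or 2 left out, 3 and 3 of the ion transport genes rose and 6 and 8 of the nutrient carriers.

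Nuclear genes of mitochondrial respiration mostly shared a direction. Of 75 oxidative phosphorylation genes 72 had a positive difference, 35 rose and 2 fell (median 0.77). Over all genes tested 5434 of 11677 differences were positive. NDUFC2, a complex I subunit, rose from 16 and 14.1 to 81.8, 45.2 and 91.6 FPKM (log2 difference 2.14, SE 0.33, adjusted p 0.00145), and the complex I subunits NDUFA12, NDUFA10 and NDUFB10 rose by 1.59, 1.29 and 1.66. The falls were of NDUFB2 (-0.75) and NDUFA4L2 (-1.66), the latter known as a brake on complex I in low oxygen. The NDUFB2 call was lost in the fit to the control libraries alone (adjusted p 0.0638), without NC 8/16-cell replicate 1 (adjusted p 0.152) and without NC 8/16-cell replicate 2 (adjusted p 0.0689). That of NDUFA4L2 was lost without the filter (adjusted p 0.0522), without NC 8/16-cell replicate 1 (adjusted p 0.189), without NC morula replicate 1 (adjusted p 0.0645) and without NC morula replicate 3 (adjusted p 0.0605). The number that rose depended on single libraries, with 16 without NC 8/16-cell replicate 1, 8 without NC 8/16-cell replicate 2, 16 without NC morula replicate 1, 56 without NC morula replicate 2 and 19 without NC morula replicate 3, while the median stayed between 0.64 and 0.98. All 13 mitochondrially encoded protein genes stand at 0 throughout and give no value.

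Of 33 genes of the citric acid cycle and pyruvate entry 15 rose and 3 fell (median 0.65). PDHA1 and PDHB, subunits of pyruvate dehydrogenase, rose from 13.2 and 15.5 to 59.5, 45.7 and 40.0 FPKM (log2 difference 1.67, SE 0.26, adjusted p 0.0014) and from 22.2 and 19 to 123, 83.1 and 75 FPKM (2.1, SE 0.38, adjusted p 0.00282). Malate dehydrogenase MDH1, glutamate dehydrogenase GLUD1 and the succinyl-CoA ligase subunit SUCLG1 rose by 1.72, 1.24 and 1.32. Pyruvate carboxylase PC, which bypasses that entry, fell by 0.93, and PDK1, the kinase that shuts pyruvate dehydrogenase off, by 1.27. Those calls were lost without NC 8/16-cell replicate 1 (adjusted p 0.0566) for PC and lost without NC 8/16-cell replicate 1 (adjusted p 0.0668) for PDK1. Glycolysis genes went to both sides, with 6 of 23 higher and 5 lower (median 0.13, and -0.02 without NC 8/16-cell replicate 2). BPGM, which diverts a glycolytic intermediate, fell from 20.9 and 10.4 to 3.29, 2.56 and 2.83 FPKM (-2.03, SE 0.26, adjusted p 0.000593), and PFKFB3, which makes the activator of phosphofructokinase, from 2.98 and 4.22 to 1.1, 0.507 and 0.275 FPKM (-1.52, SE 0.27, adjusted p 0.00269). GAPDH went from 90.5 and 77.2 to 324, 155 and 233 FPKM (1.43), a call lost without NC 8/16-cell replicate 1 (adjusted p 0.0693), without NC 8/16-cell replicate 2 (adjusted p 0.10) and without NC morula replicate 1 (adjusted p 0.0532). Leaving out NC 8/16-cell replicate 1 or 2, 8 and 7 of the citric acid cycle genes and 2 and 0 of the glycolysis genes rose, and without NC morula replicate 1, 11 and 1.

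Lysosome genes rose more often than they fell: of 48 proton pump and lysosome genes 20 rose and 2 fell (median 0.51), and 15 and 12 rose without NC 8/16-cell replicate 1 or 2. The lysosomal membrane protein LAMP2 rose from 17.3 and 14.2 to 76.2, 66 and 71.7 FPKM (log2 difference 2.12, SE 0.19, adjusted p 0.000115), and LAMP1 by 1.56. GM2A and PSAP, cofactors of sphingolipid breakdown, rose by 1.34 and 1.61. The protease CTSC fell from 106 and 104 to 32.2, 34.7 and 38.4 FPKM (-1.56, SE 0.25, adjusted p 0.00178). Of 56 lipid and cholesterol genes 13 rose and 6 fell (median 0.12). ACSL3 and ACSL4, which activate fatty acids, rose by 2.33 and 1.78 and the lipid droplet coat protein PLIN2 from 61.7 and 47.7 to 167, 121 and 169 FPKM (1.46, SE 0.24, adjusted p 0.0020). The fatty acid-binding protein FABP5, mevalonate kinase MVK and the sterol sensor INSIG1 fell by 2.13, 1.75 and 1.64. Lipid genes that rose numbered 6 and 7 without NC 8/16-cell replicate 1 or 2.

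Log2 differences ran from -2.69 to 2.32 among redox genes and from -1.38 to 1.23 among nucleotide genes. Of the nucleotide list 22.2% fell and 8.9% rose, against 18.6% and 13.1% over all genes tested. Of 34 glutathione and redox genes 5 rose (14.7%) and 3 fell (8.8%, median 0.24). The glutathione transferase GSTM3 fell from 127 and 109.7 to 17.6, 14.7 and 20.7 FPKM (log2 difference -2.69, SE 0.19, adjusted p 4.16e-05), and the peroxidase PRDX2 rose from 51.2 and 54 to 377, 162 and 311 FPKM (2.32, SE 0.40, adjusted p 0.00227). Of 45 nucleotide and one-carbon genes 10 fell and 4 rose (median 0.01, and below 0 under 8 of the 14 alternatives, down to -0.19 without NC morula replicate 3). AMD1, which supplies polyamine synthesis, methionine synthase MTR, the uridine kinase UCK2 and IMPDH1 of guanine nucleotide synthesis fell by 1.35, 1.38, 1.33 and 1.25. Without NC 8/16-cell replicate 1 or 2, 3 and 3 redox genes rose and 4 and 6 nucleotide genes fell, and 1 and 0 nucleotide genes rose.

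Few genes of cytosolic ribosomal proteins and translation initiation factors were called. Of 83 cytosolic ribosomal protein genes 0 rose and 2 fell in limma (1 and 2 at an unadjusted p under 0.05, median 0.06, between -0.12 and 0.27 when single NC libraries were left out), at log2 differences from -0.90 to 0.62. Without NC morula replicate 2, 2 rose, at equal library sums 3 rose and 2 fell, and after quantile normalization 6 rose and 5 fell. The pair that fell was RPS4Y1 (-0.90) and the RPL26 copy RPL26L1 (-0.74), of which the former was lost without NC 8/16-cell replicate 1 (adjusted p 0.077) and without NC 8/16-cell replicate 2 (adjusted p 0.0636) and the latter lost in the fit to the control libraries alone (adjusted p 0.0529) and without NC 8/16-cell replicate 1 (adjusted p 0.17). Of 40 translation initiation factors 0 rose and 5 fell in limma (4 and 10 at an unadjusted p under 0.05). The share that fell was 12.5%, against 18.6% over all genes tested. The falls numbered 0 without NC 8/16-cell replicate 1, 2 without NC 8/16-cell replicate 2 and 5 without NC morula replicate 1, and without NC morula replicate 2, 4 rose and 4 fell. In the NC libraries alone 1 fell. Of 61 ribosome biogenesis genes 12 fell (19.7%, against 18.6% over all genes tested) and 2 rose (median -0.14). The RNA acetyltransferase NAT10 fell by 0.82, a call lost without NC 8/16-cell replicate 1 (adjusted p 0.0588). The falls numbered 0 and 4 without NC 8/16-cell replicate 1 or 2, 7 without NC morula replicate 1, 18 without NC morula replicate 3, 7 in the NC libraries alone and 5 at equal library sums.

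Of 78 mitochondrial ribosomal protein genes 11 rose (14.1%) and 3 fell (3.8%), against 13.1% and 18.6% over all genes tested (median 0.10). MRPL3, MRPL43 and MRPL54 rose by 1.56, 1.33 and 1.18. Of 23 transfer RNA synthetases 7 rose and 3 fell (median 0.31), with AARS, for alanine, from 38.9 and 30.5 to 118, 91.5 and 78.2 FPKM (log2 difference 1.43, SE 0.27, adjusted p 0.00357) and DARS, for aspartate, up by 0.96. Of 85 splicing genes 9 rose and 9 fell (10.6% each, median 0.05), and of 46 proteasome genes 9 rose (19.6%) and 2 fell (4.3%, median 0.26). With NC 8/16-cell replicate 1 or 2 left out, 3 and 4 mitochondrial ribosomal protein genes, 3 and 3 synthetases, 1 and 2 splicing genes and 2 and 0 proteasome genes rose. Without NC morula replicate 1 those numbers were 5, 4, 4 and 3, without NC morula replicate 2 18, 9, 7 and 14, and without NC morula replicate 3 6, 7, 9 and 5. Splicing genes that fell numbered 1, 4, 5, 5 and 7 in the same order of libraries. In the NC libraries alone 6 mitochondrial ribosomal protein genes and 5 proteasome genes rose, at equal library sums 4 splicing and 5 proteasome genes rose and 0 synthetases fell, and after quantile normalization 15 proteasome genes rose. Of 42 heat shock and folding genes 13 rose and 4 fell (median 0.11). The mitochondrial chaperonin HSPD1 rose from 32.7 and 35.1 to 135, 149.5 and 124 FPKM (1.97, SE 0.31, adjusted p 0.00159), HSPA4 by 1.47 and the endoplasmic reticulum chaperone CANX by 1.17, while the HSP70 partner DNAJB1 fell from 147 and 128 to 42.2, 44.5 and 50.4 FPKM (-1.57, SE 0.24, adjusted p 0.00145) and HSPA2 fell by 1.12. The heat shock rises numbered 8 and 7 without NC 8/16-cell replicate 1 or 2.

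**Figure D4:**
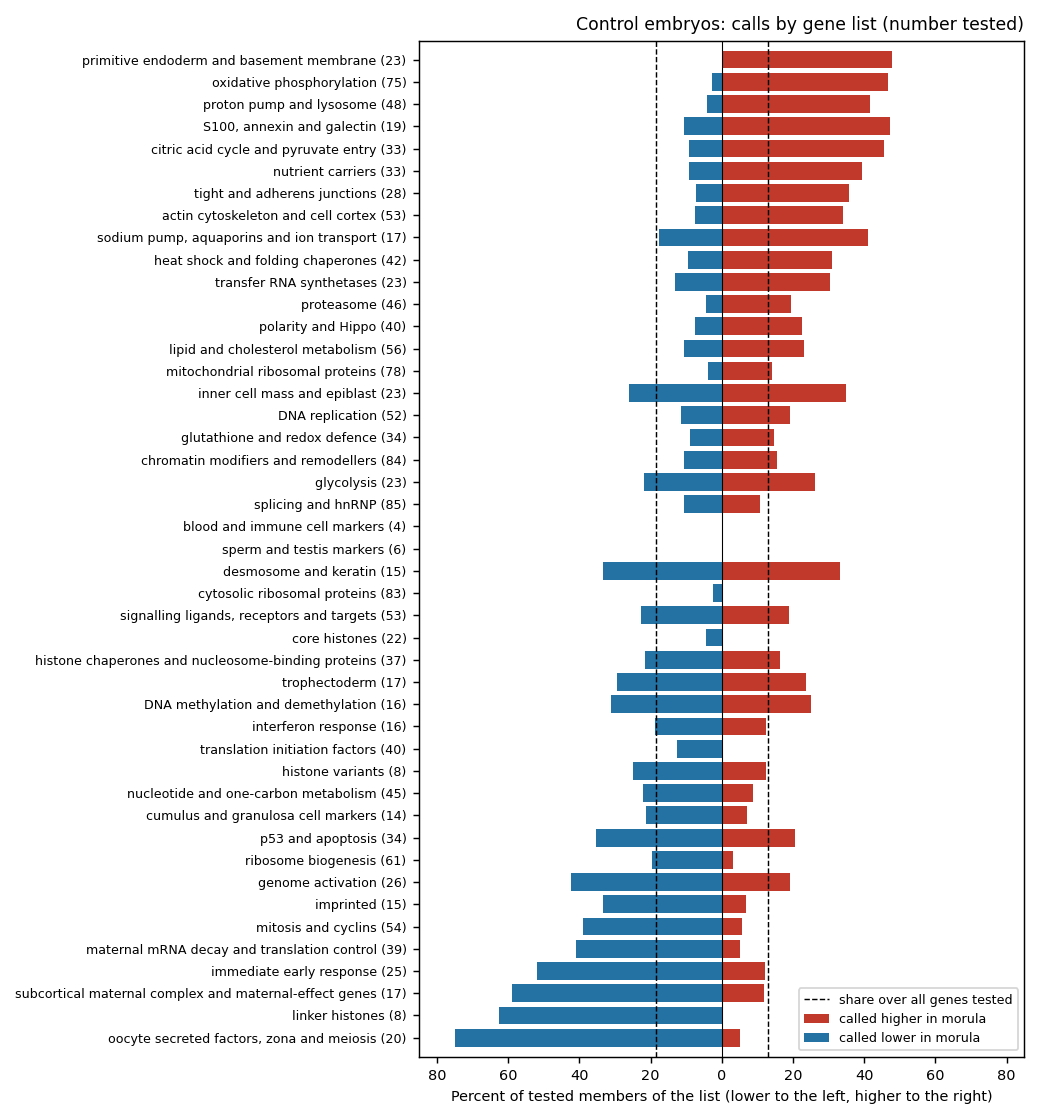
Share of the tested members of each of 45 gene lists called higher (red, to the right) or lower (blue, to the left) in NC morulae than in NC 8/16-cell embryos, with the number tested in brackets. Dashed lines give the shares over all genes tested, 13.1% higher and 18.6% lower, and lists are ordered by the difference between their shares, from primitive endoderm at the top to oocyte factors at the bottom.

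Mitotic genes fell more often than they rose. Of 54 genes of mitosis and cyclins 21 fell and 3 rose (median -0.24). CDCA8, a subunit of the chromosomal passenger complex, fell from 238 and 226 to 45.9, 43.1 and 60.6 FPKM (log2 difference -2.21, SE 0.26, adjusted p 0.000391), and the mitotic kinase AURKA from 256 and 209.9 to 105, 105 and 109.6 FPKM (-1.11, SE 0.17, adjusted p 0.00142). The G1 cyclin CCNE1 fell from 41 and 53.9 to 17.8, 15.7 and 18.8 FPKM (-1.39, SE 0.21, adjusted p 0.0013). The members that rose were CDK4 (1.07), CENPF (1.1) and NDC80 (0.51). The CDK4 call was lost without NC 8/16-cell replicate 2 (adjusted p 0.078) and the CENPF call lost without NC 8/16-cell replicate 1 (adjusted p 0.0695). That of NDC80 was lost in the fit to the control libraries alone (adjusted p 0.102), at equal library sums (adjusted p 0.158), without NC 8/16-cell replicate 1 (adjusted p 0.0966), without NC 8/16-cell replicate 2 (adjusted p 0.206), without NC morula replicate 2 (adjusted p 0.0631) and without NC morula replicate 3 (adjusted p 0.0732). Mitotic genes that fell numbered 9 and 10 without NC 8/16-cell replicate 1 or 2. Of 52 DNA replication genes 10 rose (19.2%) and 6 fell (11.5%), against 13.1% and 18.6% over all genes tested. The median of the list was -0.06, and 0.01 with libraries centred on their medians. The origin licensing factor CDT1 fell from 32.9 and 30.6 to 15.9, 12.9 and 19.4 FPKM (-0.96, SE 0.19, adjusted p 0.00392) and MCM5, a subunit of the replicative helicase, rose from 11.3 and 10.7 to 48.3, 25.4 and 29 FPKM (1.5, SE 0.29, adjusted p 0.00402). Replication genes that rose numbered 2 and 1 without NC 8/16-cell replicate 1 or 2, 3 without NC morula replicate 1 and 5 without NC morula replicate 3. The NC libraries alone gave 4 rises and 1 fall, and equal library sums gave 7 and 1.

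Of 34 p53 and apoptosis genes 12 fell and 7 rose (median -0.13, and 0.11 for the 29 with a mean of at least 5 FPKM). Falls included genes that promote death, with DIABLO from 132 and 114 to 50.8, 42.6 and 53.7 FPKM (log2 difference -1.32, SE 0.18, adjusted p 0.00081), the initiator caspase CASP9 by 1.69 and the BH3-only BCL2L11 by 1.68. BCL2L10, of the BCL2 family, fell as well. AIFM1, a mitochondrial flavoprotein that serves respiration and can also act in cell death, rose from 1.21 and 1.64 to 9.71, 8.35 and 4.91 FPKM (1.8, SE 0.28, adjusted p 0.00158). Without NC 8/16-cell replicate 1 or 2, 6 and 9 of the list fell and 4 and 2 rose.

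Core histone RNAs showed 0 rises and 1 fall among 22 genes (median -0.29, limma; 1 and 3 at an unadjusted p under 0.05). The fall, of HIST2H2BF, went from 6.65 and 10.6 to 1.37, 5.49 and 2.17 FPKM (-1.37, SE 0.42, adjusted p 0.0306), a call lost at equal library sums (adjusted p 0.0692), without the filter (adjusted p 0.0688), without NC 8/16-cell replicate 1 (adjusted p 0.0741), without NC 8/16-cell replicate 2 (adjusted p 0.208), without NC morula replicate 1 (adjusted p 0.104) and without NC morula replicate 3 (adjusted p 0.0826). Without NC morula replicate 1, 3 core histones rose and 0 fell, without NC morula replicate 2, 0 and 4, and at a mean of at least 5 FPKM the median of the 11 that remained was 0.34. Most histone RNAs lack a poly(A) tail, so libraries made by poly(A) capture see only part of them, and near-identical copies share reads. Of 8 histone variants H2AFY, the macroH2A gene, fell from 41.3 and 39.4 to 9.69, 13.5 and 15.3 FPKM (-1.6, SE 0.28, adjusted p 0.00254), H2AFZ fell by 0.98 and H2AFJ rose by 1.05. The H2AFZ call was lost without NC 8/16-cell replicate 1 (adjusted p 0.0811) and without NC 8/16-cell replicate 2 (adjusted p 0.0879), and that of H2AFJ lost without NC 8/16-cell replicate 1 (adjusted p 0.119).

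Chromatin proteins moved to both sides, as did all genes tested (13.1% higher and 18.6% lower). Of 37 histone chaperones and nucleosome-binding proteins 6 rose (16.2%) and 8 fell (21.6%), with a median of -0.03, and of 0.04 with centred libraries. HMGN3, which binds nucleosomes, fell from 187 and 194 to 87.7, 90.4 and 92.8 FPKM (log2 difference -1.07, SE 0.20, adjusted p 0.00332), and the chaperone SPTY2D1 fell by 1.05. Of 84 chromatin modifiers and remodellers 13 rose (15.5%) and 9 fell (10.7%), with a median of 0.04. The deacetylase HDAC8 rose from 8.91 and 11 to 52.1, 58.7 and 29.8 FPKM (2.08, SE 0.27, adjusted p 0.000658) and the histone demethylase KDM4A from 54.4 and 49.1 to 142, 164 and 118 FPKM (1.42, SE 0.23, adjusted p 0.00158). The histone demethylase KDM5C and the heterochromatin protein CBX1 rose by 0.85 and 1.28. Of 16 genes of DNA methylation and demethylation 4 rose and 5 fell. UHRF1, which brings the maintenance methyltransferase to replicating DNA, fell from 38.6 and 21 to 4.12, 4.37 and 2.48 FPKM (-2.69, SE 0.32, adjusted p 0.000444), and the methyl-CpG reader MBD2 from 29.1 and 27.2 to 4.48, 8.04 and 6.11 FPKM (-2.04, SE 0.26, adjusted p 0.000607). TET1, a methylcytosine oxidase, went from 11.3 and 9.09 to 23.5, 29.4 and 17.1 FPKM (1.09), a call lost without NC 8/16-cell replicate 2 (adjusted p 0.0508). Without NC 8/16-cell replicate 1 or 2, 3 and 2 of the chaperones, 4 and 6 of the modifiers and 2 and 0 of the methylation genes rose, 4 and 4 chaperones and 1 and 2 modifiers fell, and without NC morula replicate 1, 7 modifiers rose. At equal library sums 4 chaperones and 2 modifiers fell, and in the NC libraries alone 5 modifiers.

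Of 53 signalling ligands, receptors and targets 10 rose (18.9%) and 12 fell (22.6%), against 13.1% and 18.6% over all genes tested. The median was -0.06, and 0.01 with centred libraries. The Wnt effector LEF1 fell from 7.55 and 4.25 to 0.299, 0.404 and 0.454 FPKM (log2 difference -2.28, SE 0.36, adjusted p 0.00166). The receptor FGFR4 rose from 20.4 and 19.4 to 91.9, 67.3 and 69.1 FPKM (1.87, SE 0.33, adjusted p 0.00241), and the BMP effector SMAD1 rose by 1.13. Without NC 8/16-cell replicate 1 or 2, 4 and 4 of these rose and 4 and 7 fell, and without NC morula replicate 1, 6 and 6. Of 25 immediate early genes, which cells switch on within minutes of a stimulus, 13 fell and 3 rose (median -0.75). DUSP1, a phosphatase of MAP kinases, fell from 234 and 214 to 78.2, 87.3 and 89.9 FPKM (-1.39, SE 0.20, adjusted p 0.00111) and the clock gene PER1 by 1.3. GADD45A and GADD45B fell by 1.99 and 1.33, and the mTOR inhibitor DDIT4 rose by 1.45. The immediate early falls numbered 6 and 9 without NC 8/16-cell replicate 1 or 2. Of 15 imprinted genes 5 fell and 1 rose (median -0.21). The zinc finger gene PLAGL1 fell from 43.1 and 38.5 to 1.65, 3.89 and 5.21 FPKM (-3.27, SE 0.47, adjusted p 0.00107) and PHLDA2, a brake on placental growth, from 65.5 and 101 to 10.9, 17.7 and 16.4 FPKM (-2.39, SE 0.43, adjusted p 0.00278). The imprinted falls numbered 2 without either NC 8/16-cell library and 3 without NC morula replicate 3.

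Interferon response genes had a median of -1.03 with 3 of 16 lower (18.75%) and 2 higher (12.5%). These shares were near those over all genes tested, 18.6% and 13.1%. The ubiquitin-like modifier ISG15 was at 22.5 and 34.5 FPKM at the 8/16-cell stage and at 0, 10.1 and 1.16 FPKM in morulae (-3.33, SE 0.81, adjusted p 0.0112), the morula libraries differing widely. Its call was lost without NC 8/16-cell replicate 1 (adjusted p 0.0576) and without NC 8/16-cell replicate 2 (adjusted p 0.0878). The falls numbered 0 without NC 8/16-cell replicate 1 or 2 (0 rises too), 1 without NC morula replicate 1 and 8 without NC morula replicate 2. The rises numbered 0 in the NC libraries alone and at equal library sums.

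Markers of cells other than blastomeres were also read. Of 25 cumulus and granulosa cell markers 14 were tested (median -0.89). Of the 14, 3 fell (21.4%) and 1 rose (7.1%), against 18.6% and 13.1% over all genes tested. The summed level of the 25 markers was 108 and 114 FPKM at the 8/16-cell stage and between 81 and 89.4 FPKM in morulae. The protease inhibitor SERPINE2, the member that rose, made up 75.8, 50.1 and 45 FPKM of the morula sums, and the other 24 markers summed to 83.1 and 86.3 FPKM at the 8/16-cell stage and to 13.5, 30.9 and 37.9 FPKM in morulae. COL1A1, a fibrillar collagen, fell from 23.1 and 22 to 1.91, 4.02 and 2.89 FPKM (log2 difference -2.62, SE 0.35, adjusted p 0.000743), the matrix protein TNFAIP6 and the hormone AMH fell by 1.78 and 1.21, and SERPINE2 rose by 1.04. The TNFAIP6 call was lost with a pseudocount of 5 (adjusted p 0.0504), without NC 8/16-cell replicate 1 (adjusted p 0.0712) and without NC 8/16-cell replicate 2 (adjusted p 0.0707). That of AMH was lost without NC 8/16-cell replicate 1 (adjusted p 0.119), without NC 8/16-cell replicate 2 (adjusted p 0.0731) and without NC morula replicate 1 (adjusted p 0.0611), and that of SERPINE2 lost without NC 8/16-cell replicate 1 (adjusted p 0.113), without NC 8/16-cell replicate 2 (adjusted p 0.0743) and without NC morula replicate 1 (adjusted p 0.0585). Without NC 8/16-cell replicate 1 or 2, 1 and 1 of the markers fell, 2 without NC morula replicate 1 and 5 in the NC libraries alone. The gonadotropin receptors FSHR and LHCGR, also on this list, were at 0 in all 5 libraries. CYP19A1, which makes estrogen in follicle cells, was at 0.0144 and 0.0483 FPKM at the 8/16-cell stage. In morulae it was at 1.41, 1.44 and 0.689 FPKM. Of the 14 tested markers 12 had a negative difference. VIM went from 16.4 and 20.3 to 0.346, 5.4 and 5.42 FPKM and CYP11A1 from 7 and 7.85 to 0.149, 3.13 and 3.77 FPKM. Neither was called, but VIM was called lower in the NC libraries alone (-2.34, limma, adjusted p 0.0244). The part of cumulus and granulosa cells in the falls of the maternal, immediate early and interferon lists was not tested. Of 18 sperm and testis markers 6 were tested and of 17 blood and immune markers 4, and 0 of these passed in limma (1 and 0 at an unadjusted p under 0.05). The sperm markers summed to 22.3 and 24.6 FPKM at the 8/16-cell stage and to 26 to 31.4 FPKM in morulae. Of these sums ODF2 held 12.9 to 21.4 FPKM, and 5 of the 18 markers were at 0 in all 5 NC libraries. The blood markers summed to 163 and 180 FPKM and to 161 to 241 FPKM. HBA held 99 and 118 FPKM of this at the 8/16-cell stage and 157, 106 and 154 FPKM in morulae. HBB, HBM and TYROBP were at 0 in all 5 NC libraries, and PTPRC was at 0.0701 FPKM or less. The part of sperm or blood cells in any result was not tested.

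The same stage change was measured in the KD embryos, in libraries that enter the NC test through the shared estimate of spread and not through the NC difference. There 2353 of the 11677 genes changed (20.2%), 624 higher (5.34%) and 1729 lower (14.8%). This split rests on the scaling: the counts were 1075 higher and 890 lower with libraries centred on their medians, and 1156 and 262 at equal library sums. KD 8/16-cell replicate 1 summed to 669836 FPKM, with MIR2887-2 at 136037 FPKM, against 361874 to 449649 FPKM in the other KD libraries. Its 100 highest genes held 50.9% of its sum. The part of this library in the KD results was not tested. Of the 1528 genes that rose in NC embryos 1391 had a positive difference in KD embryos and 453 were called higher there. Of the 2167 that fell 2129 had a negative difference and 1165 were called lower. Over all genes tested 4396 differences were positive and 7236 negative in KD embryos. The difference between the stage changes of the treatments (interaction) was called for 0 genes (0.0%, limma), with 1129 genes at an unadjusted p under 0.05 and a lowest adjusted p of 0.252.

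The list medians of the treatments stood close for oocyte factors, at -1.93 in NC and -1.67 in KD embryos. They stood apart for core histones, at -0.29 and 0.61, for linker histones, at -0.76 and 0.27, and for oxidative phosphorylation, at 0.77 and 0.16, against -0.06 and -0.18 over all genes tested. The KD medians are given at the deposited scaling only, and the split of the KD counts into rises and falls rests on that scaling. How far the gaps between the treatments depend on it was not tested. The 8 linker histones include H1FOO, the target of the knockdown. For core histones with a mean of at least 5 FPKM the NC median was 0.34. The difference between treatments was tested for single genes, and none passed. TPM4 is an example, with 45.6 and 33.1 FPKM in the KD 8/16-cell libraries and 108, 51.5 and 28.2 FPKM in the KD morulae, a difference of 0.47 against 2.89 in NC embryos (interaction adjusted p 0.425). COL4A1 differed by 0.59 in KD embryos against 2.5 in NC embryos (interaction adjusted p 0.252).

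**Figure D5:**
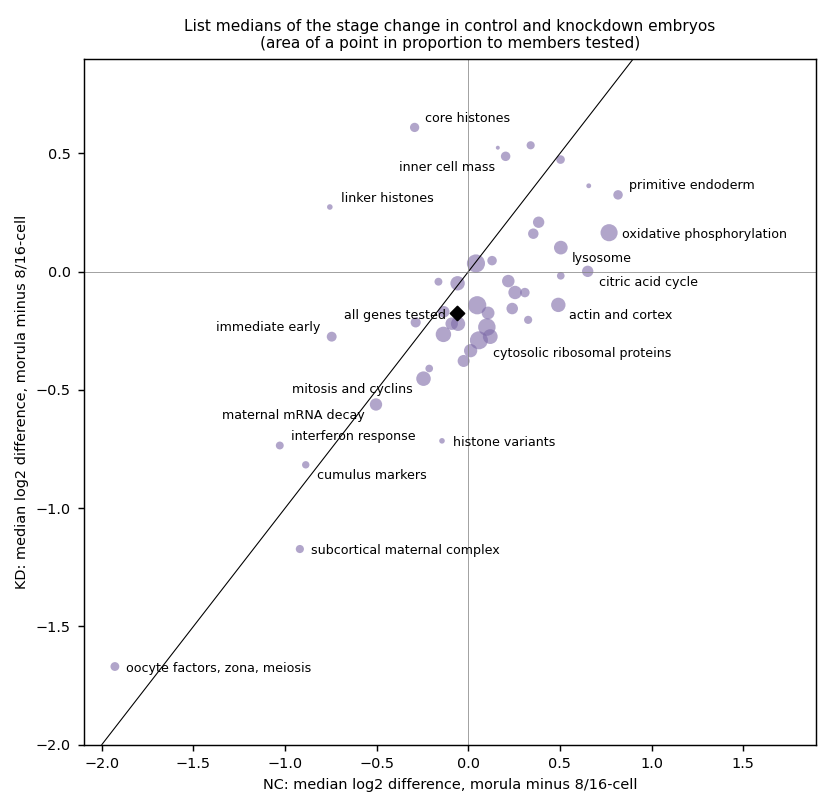
Median log2 difference, morula minus 8/16-cell, of each of 45 gene lists in NC embryos (horizontal axis) and KD embryos (vertical axis), with the area of a point in proportion to the members tested. Both medians are at the deposited scaling, and KD medians at other scalings were not taken. The black diamond marks all genes tested and the line marks equal medians; core and linker histones lie above the line and oxidative phosphorylation below it, and no gene passed the test of the difference between treatments.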

How the data were processed

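Per the labels' protocols, RNA was isolated from embryos with a Picopure kit, captured on oligo(dT) beads and made into libraries with an NEB Next Ultra kit. The submitters' processing notes name the tools HISAT2, Cufflinks, featureCounts and Trimmomatic and the builds ARS-UCD1.2 and bosTau9; versions, the role of each tool and strandedness are not given in the sources used here. The authors deposited FPKM values in a table of 39911 lines. Read counts were not used here, so read depth is unknown. All 10 libraries were matched to columns and 0 columns were left unmatched. The 81 symbols that stand on several lines (11211 lines) were left out.

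Values were taken as log2(FPKM + 1), and fold changes are on that scale, which understates the change of low genes. Genes that averaged 1 FPKM or more in the 5 NC libraries were tested with limma 3.58.1 in R 4.3.3 (limma-trend, 4 group means over all 10 libraries, 6 residual and 4.88 prior degrees of freedom, two-sided, Benjamini-Hochberg over 11677 genes, called at an adjusted p under 0.05). The fit was tested on simulated data. The labels do not say that libraries come from separate collections, so p-values measure the spread between these libraries only. Being shares of a library, FPKM changes are relative to its other transcripts, and near-identical copies and antisense partners may share reads. Alternatives were other pseudocounts, filters and scalings, the NC libraries alone, a replicate block and leaving out each NC library.

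Members, gene lists and the rule for named genes were chosen with earlier results of these data known. The rule took the 12 largest log2 rises and falls and the 8 largest in FPKM among called genes whose stages did not overlap, averaging 10 FPKM or more in the higher stage and no LOC, MIR, SNOR or RN symbol, a set of lineage and maternal genes, and up to 6 members of each list by smallest p. Other members were named where a count was 5 or less, after their values were seen. RN18S1, IFNT2 and the genes of the closing section were also chosen after their values were seen. Lists are described by counts and medians, with no test of the list. A few single genes that the rule names are not reported here.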

Additional observations from a re-analysis of the deposited data

How the results depend on the processing

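All 3695 called genes kept their sign under the alternatives that tested the same genes. The counts of 1528 higher and 2167 lower ran from 1141 to 2080 and from 1392 to 2586 over the alternatives that kept every library, with 1141 at a mean of at least 5 FPKM; the lower count of 1392 came at equal library sums, where the KD stage change fell from 2353 to 1418 genes. Leaving out 1 NC library gave 604 to 1658 higher, 802 to 2086 lower, 1863 to 2704 genes for the KD stage change and 0 to 3 for the interaction; the cause was not tested. Rises made up 41.35% of the calls, with 1878 rises against 1932 falls on centred libraries and 1931 against 2029 after quantile normalization. Of 301 named genes that were called, 155 kept the call under each of the 14 alternatives that tested them (40 of the 301 were not tested at a mean of at least 5 FPKM), and of 36 named genes not called 20 were called under at least 1 alternative. The replicate numbers do not pair the libraries as far as the labels say: for NC libraries of the 2 stages with the same number, deviations from the stage mean correlated across genes at r = 0.0935 and 0.0298. A fit with the replicate block called 2080 higher and 2586 lower, 3530 genes for the KD stage change and 0 for the interaction. It also called GATA6 (0.68), TEAD4 (0.47), KRT8 (1.09) and CDH1 (0.46) higher and gave 2 rises and 13 falls of cytosolic ribosomal protein genes. Read depth is unknown, so the counting error of low values cannot be given.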

Other observations

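Genes that crossed a low and a high level were counted after the values had been seen, as a description. In 16 genes both NC 8/16-cell libraries were under 1 FPKM and all 3 NC morula libraries at 5 FPKM or more, and 7 of these carry LOC symbols. The named ones include DLG3, a scaffold of the cell cortex, at 0.911 and 0.832 FPKM before and 11.5, 8.6 and 7.5 FPKM in morulae, ADD2, an adducin of the membrane skeleton, at 0.637 and 0.903 and 5.65, 5.75 and 5.39 FPKM, and RSPH1, a radial spoke protein of cilia, at 0.475 and 0.837 and 6.12, 11.8 and 8.11 FPKM. LCAT, an enzyme that esterifies cholesterol in plasma, went from 0.258 and 0.718 to 9.72, 5.34 and 8.71 FPKM. LOC112442823, LOC112448925 and LOC112449625 hold the same value in every NC library (0 and 0 at the 8/16-cell stage and 62.2, 44.2 and 30.4 FPKM in morulae), and they are 3 of the 7.

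In 25 genes the order was the reverse, 4 of them with LOC symbols. Beside the maternal genes of the report they include several transcription factors better known from later tissues. MYOD1, the factor of muscle cells, stood at 14.8 and 8.79 FPKM at the 8/16-cell stage and at 0.683, 0.679 and 0.345 FPKM in morulae, SIM1, of the hypothalamus, at 5.29 and 5.2 and 0.0776, 0.872 and 0.411 FPKM, and IRX3 at 8.11 and 6.48 and 0.644, 0.534 and 0.117 FPKM. ESX1, a homeobox gene of placenta and testis, stood at 7.59 and 8.23 and 0.377, 0.101 and 0 FPKM, and PRDM13 at 9.87 and 7.54 and 0.424, 0.544 and 0.0748 FPKM. SLBP2, the oocyte form of the protein that binds histone RNA stem loops, went from 23.5 and 15.1 to 0.666, 0.476 and 0.20 FPKM. HORMAD1, a protein of meiotic chromosome axes, went from 7.57 and 9.88 to 0.392, 0.996 and 0.0866 FPKM.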
